A study of Mus musculus with 24 samples.

Results

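Opioid signalling in the brain runs through 4 related receptors and 4 peptide precursors, and the mRNAs of these 8 genes were followed in the hippocampus of neonatal mice. The receptors were Oprm1 (mu), Oprd1 (delta), Oprk1 (kappa) and Oprl1 (nociceptin), and the precursors were Penk, Pdyn, Pnoc and Pomc. They were found by their gene names among the non-control probes of the Agilent arrays. The 8 genes were covered by 11 of the 55681 probes, 6 for the receptors and 5 for the precursors. Male C57BL/6 pups were killed on P9 and fell into 3 groups of 5 arrays. Con pups were untreated and reared by the dam. MS2 and MS5 pups received morphine at 2 or 5 mg/kg from P5 together with isolation from the dam and apnea (nitrogen followed by oxygen), so each contrast with Con spanned both morphine and the stress protocol. Each array carried RNA from the pooled left and right hippocampi of 1 animal. Levels are given on the log2 scale, after background adjustment and quantile normalization.

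As background, the 4 receptors couple to inhibitory G proteins, which lower cyclic AMP, open potassium channels and close calcium channels, so that neurons fire and release transmitter less. Morphine acts mainly on the mu receptor. Enkephalins from Penk act on the delta and mu receptors, dynorphins from Pdyn on the kappa receptor, nociceptin from Pnoc on the nociceptin receptor, and beta-endorphin from Pomc mainly on the mu receptor. In the hippocampus, Pdyn is known from the granule cells of the dentate gyrus and their mossy fibres, Penk and Pnoc largely from interneurons, and mu receptors largely from GABAergic interneurons. Penk and Oprk1 are also strongly expressed in neighbouring regions, Penk in the striatum and Oprk1 in striatum, hypothalamus and other ventral areas.

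The probes are oligonucleotides of 60 bases, and 7 of the 11 are shown because the place where each one hybridizes bears on how its values were read. Capitals mark the codons of the NPxxY motif of the last transmembrane helix in the Oprm1 coding probe (mm9 chr10:3516154-3516213, minus strand), a run of alternating A and C in the other Oprm1 probe (chr10:3308332-3308391, minus strand, 30 bases shown), the stop codon in the Oprk1 (chr1:5592825-5592884, plus strand), Oprl1 (chr2:181453983-181454042, plus strand) and Pomc (chr12:3960413-3960472, plus strand) probes, a polyadenylation signal in the Penk probe (chr4:4060724-4060783, minus strand, its last 30 bases shown), and the codons of the Leu-enkephalin motif, with which the dynorphins begin, in the Pdyn coding probe (chr2:129513968-129514027, minus strand). Sequences and mm9 positions are those of the scanner files, and reading frames were computed.
Oprm1, coding probe: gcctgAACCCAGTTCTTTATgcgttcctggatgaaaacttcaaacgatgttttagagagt
Oprm1, repeat probe: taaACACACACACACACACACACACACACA
Oprk1: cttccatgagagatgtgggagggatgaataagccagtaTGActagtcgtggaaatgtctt
Oprl1, stop codon probe: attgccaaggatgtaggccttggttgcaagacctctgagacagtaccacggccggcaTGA
Penk: atctctcctgacgaaacatcAATAAAtgct
Pdyn, coding probe: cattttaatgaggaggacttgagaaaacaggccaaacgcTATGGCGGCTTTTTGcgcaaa
Pomc: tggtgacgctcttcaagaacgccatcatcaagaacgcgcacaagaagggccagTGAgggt

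The Pomc probe ends just beyond the stop codon and so covers the end of beta-endorphin, while the Pdyn coding probe covers the start of one of the peptides cut from prodynorphin. A second Oprl1 probe (chr2:181455616-181455675, plus strand) and a second Pdyn probe (chr2:129512323-129512382, minus strand) lay 1633 and 1645 bases nearer the 3′ end of their genes and are called the 3′ probes. Oprd1 (chr4:131666647-131666706, minus strand) and Pnoc (chr14:66020505-66020564, minus strand) had 1 probe each. The repeat probe of Oprm1 lay 207822 bases from the coding probe.

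Some arrays stood apart in genes other than the 8. Marker lists of hippocampal pyramidal neurons averaged 12.74 to 13.18 on 14 arrays but 10.99 on that of MS2 replicate 4, where the dentate granule list (8.08 against 8.83 to 9.35) was also low and the thalamus and habenula list was high (11.36 against 9.33 to 9.99). By these markers the RNA of MS2 replicate 4 went against its hippocampal label. MS5 replicate 9, labelled male, carried Xist at 11.34 against 5.89 to 6.08 on the 14 other arrays, and its Ddx3y, Eif2s3y, Kdm5d and Uty, which are Y-linked, were all below the range of the others. The median spot signal was 121 to 154 on 14 arrays and 58.2 on that of MS2 replicate 5. The widest gap in the striatum list left 5 arrays at 10.75 to 11.86 and 10 at 8.76 to 9.64, the high ones being Con replicate 19, MS2 replicate 5 and MS5 replicates 8, 12 and 14. The choroid plexus list was 8.58 in MS5 replicate 14 and 9.62 in MS5 replicate 9 against 11.16 to 12.46 elsewhere, and 11 of its 12 genes passed the threshold between MS5 and Con, all of them lower in MS5. Fewer cells of a type and less RNA per cell cannot be told apart in bulk tissue.

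Across the 8 genes, 0 of 11 probes met the study's criterion in any of the 3 contrasts of the fit used here. That criterion, more than 1.5-fold at an unadjusted limma p below 0.05, is called the threshold here. The paper lists Oprk1 as higher in MS5 by this criterion, among a smaller set of probes. In the fit used here Oprk1 was higher in MS5 by 0.80, at an unadjusted limma p of 0.0998. In all 55681 probes, 0.0233% passed between MS2 and Con, 0.228% between MS5 and Con and 0.129% between MS5 and MS2. At an unadjusted p under 0.05 alone, 2 members, Oprm1 (coding probe) and Oprd1, were higher in MS5 than in Con, and 0 members differed in the other contrasts, against 3.9% of all probes for MS5 and Con, 4.17% for MS2 and Con and 3.97% for MS5 and MS2. The same 2 probes had a slope with dose at an unadjusted p under 0.05, a result that 3.97% of all probes gave. Untreated Con pups formed the low end of this slope, so it too spanned both morphine and the stress protocol. Between MS5 and MS2, which shared that protocol, Oprm1 (coding probe) differed by 0.15 (-0.04 to 0.34) and Oprd1 by 0.04 (-0.13 to 0.20). No member passed an adjusted p of 0.05 in limma, and the lowest adjusted p of a member was 0.970 for MS2 and 1.00 for MS5 against Con. Of the 11 probes, 10 had a higher mean in MS5 than in Con, with a median difference of 0.15 against 0.00036 over all probes. In MS2, 9 had a higher mean than in Con, with a median difference of 0.15 against -0.0017. Of all probes, 50.2% had a higher mean in MS5 than in Con, 49.0% in MS2 than in Con and 50.7% in MS5 than in MS2. The MS2 values include MS2 replicate 4, the highest MS2 array for Oprm1 (coding probe), Oprk1, Oprl1 and Pnoc. The MS2 median without that array was not computed. The contrasts of MS5 and MS2 with Con share the Con arrays. Between MS5 and MS2 the 11 differences ran from -0.11 to 1.05, and 6 of them were above 0.

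**Figure D1:**
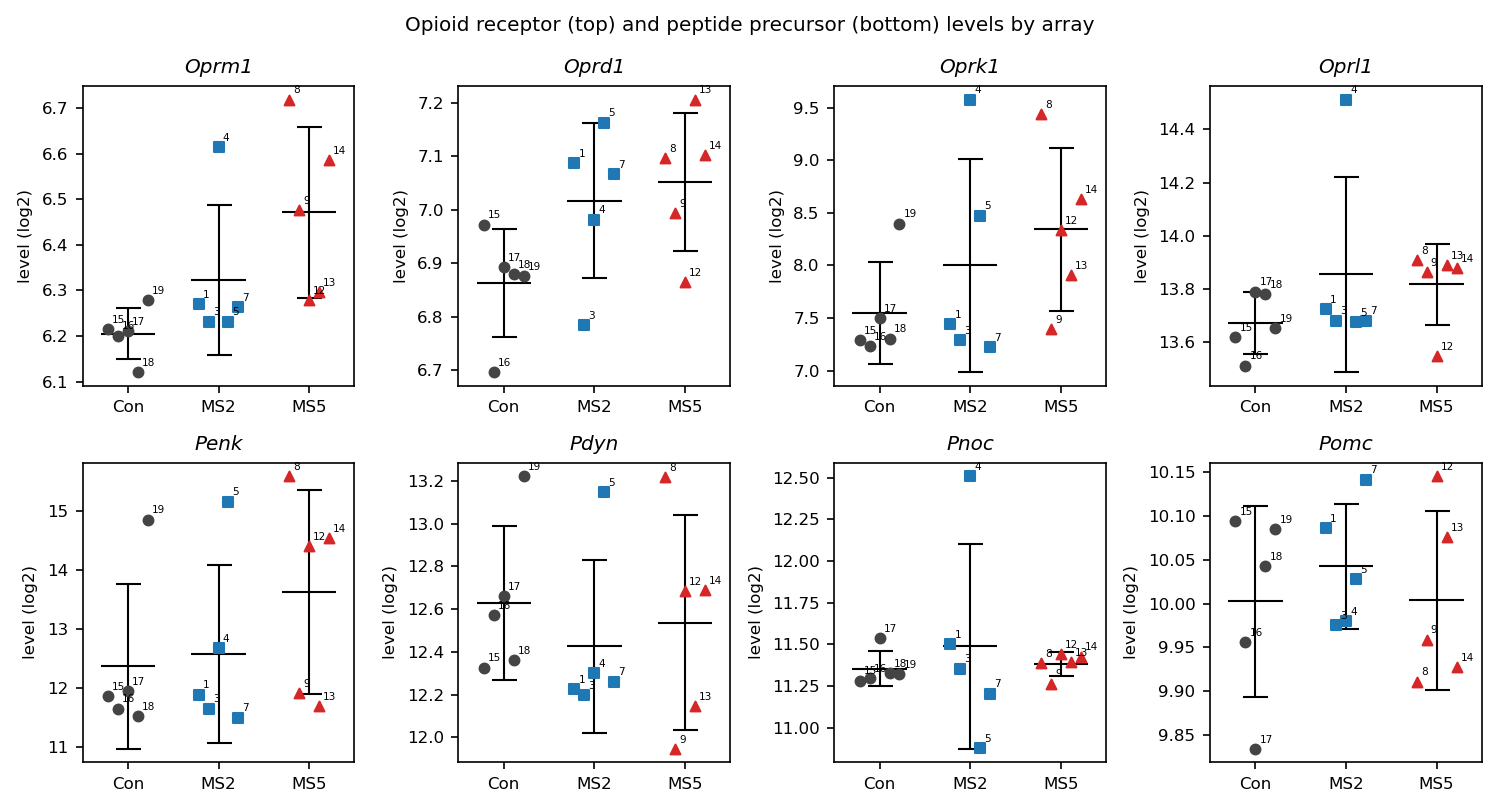
Level (log2) of the 4 receptors (top) and the 4 precursors (bottom) on each of 15 arrays, 1 probe per gene (the coding probe for Oprm1 and the 3′ probes for Oprl1 and Pdyn). Points are arrays with their replicate number, and bars are the group mean ± SD (n = 5). Penk and Pdyn were high on the same arrays in every group, and MS2 replicate 4 was the highest MS2 array for Oprm1, Oprk1, Oprl1 and Pnoc.

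**Figure D2:**
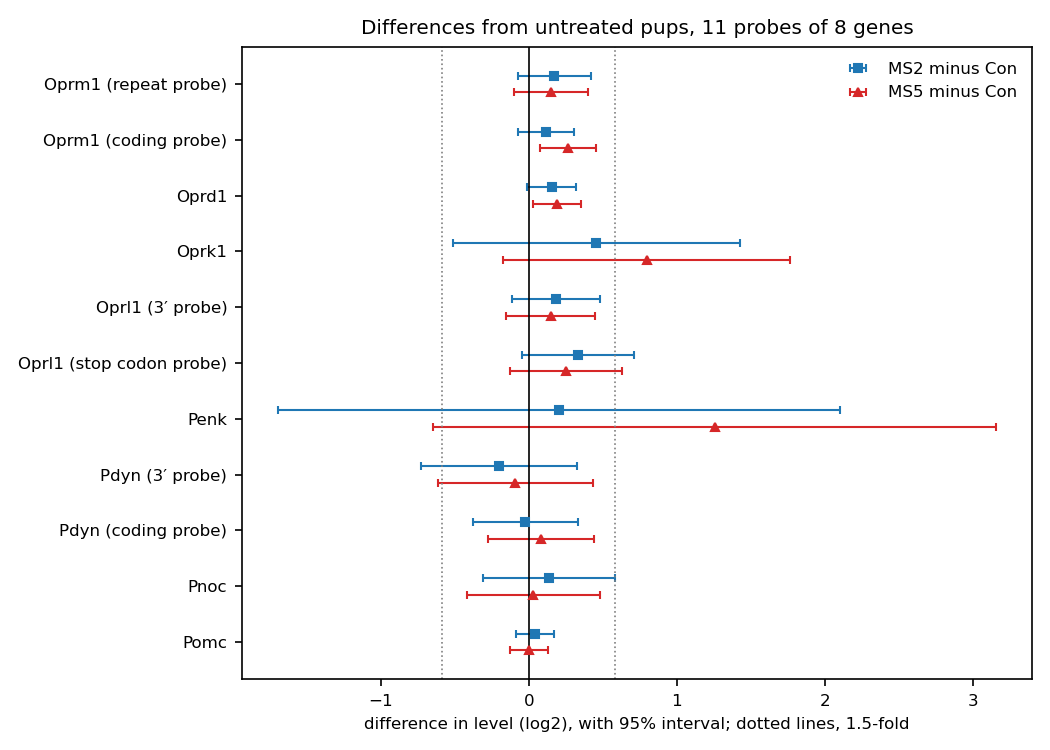
Differences of MS2 and MS5 from Con (log2) with 95% intervals from limma for all 11 probes; dotted lines mark a change of 1.5-fold. The intervals of Oprm1 (coding probe) and Oprd1 in MS5 lay above 0, and those of Penk and Oprk1 were the widest.

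Oprm1 encodes the receptor through which morphine chiefly acts. Its coding probe read 6.22, 6.20, 6.21, 6.12 and 6.28 in Con replicates 15 to 19. The MS2 replicates 1, 3, 4, 5 and 7 read 6.27, 6.23, 6.61, 6.23 and 6.26, and the MS5 replicates 8, 9, 12, 13 and 14 read 6.72, 6.48, 6.28, 6.30 and 6.59. MS5 arrays thus lay above all Con arrays, but the lowest of them and the highest Con array both rounded to 6.28. The mean was 6.20 ± 0.06 in Con, 6.32 ± 0.16 in MS2 and 6.47 ± 0.19 in MS5 (SD, n = 5). MS5 exceeded Con by 0.27 (95% interval 0.08 to 0.46, 1.20-fold, limma adjusted p = 1.00), and the two-sided exact permutation test gave p = 0.00794, the smallest it can give with 5 arrays against 5. Groups that did not overlap were found for 0.828% of all probes in this contrast and for 0.702% and 0.621% between MS2 and Con and between MS5 and MS2, where 0 members had them. MS2 differed from Con by 0.12 (-0.07 to 0.31, exact permutation p = 0.0635), and by 0.044 without MS2 replicate 4. The slope was 0.05 ± 0.02 (log2 per mg/kg, SE, limma adjusted p = 0.987).

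The deposited values hold the first of the 10 spots that carry this probe on each array, and the scanner files give all 10. Averaged over the 10 spots, Con was 6.24 ± 0.09, MS2 6.35 ± 0.16 and MS5 6.46 ± 0.19 (SD, n = 5). The spread between spots of 1 array (SD 0.08) was smaller than the spread between arrays of a group (SD 0.15). The difference between MS5 and Con became 0.23 (0.03 to 0.42, limma adjusted p = 1.00, exact permutation p = 0.0476), and 3 of 5 MS5 arrays lay above all Con arrays, so the groups overlapped. The probe was dim. On the array of MS2 replicate 5 only 4 of its 10 spots, and on that of Con replicate 18 only 6, were well above background. The highest averages were 6.70 for MS5 replicate 8, 6.64 for MS5 replicate 14 and 6.63 for MS2 replicate 4, which were also the arrays with the highest hypothalamus list (9.01, 9.07 and 10.14). With the mean level of that list as a covariate, chosen after seeing the data, the first-spot difference between MS5 and Con was 0.15 (-0.0087 to 0.31), an interval that includes 0. It was 0.21 with the choroid plexus list (-0.027 to 0.45), 0.23 with the striatum list (0.03 to 0.43) and 0.23 with the thalamus and habenula list (0.08 to 0.38), the last 2 intervals lying above 0.

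**Figure D3:**
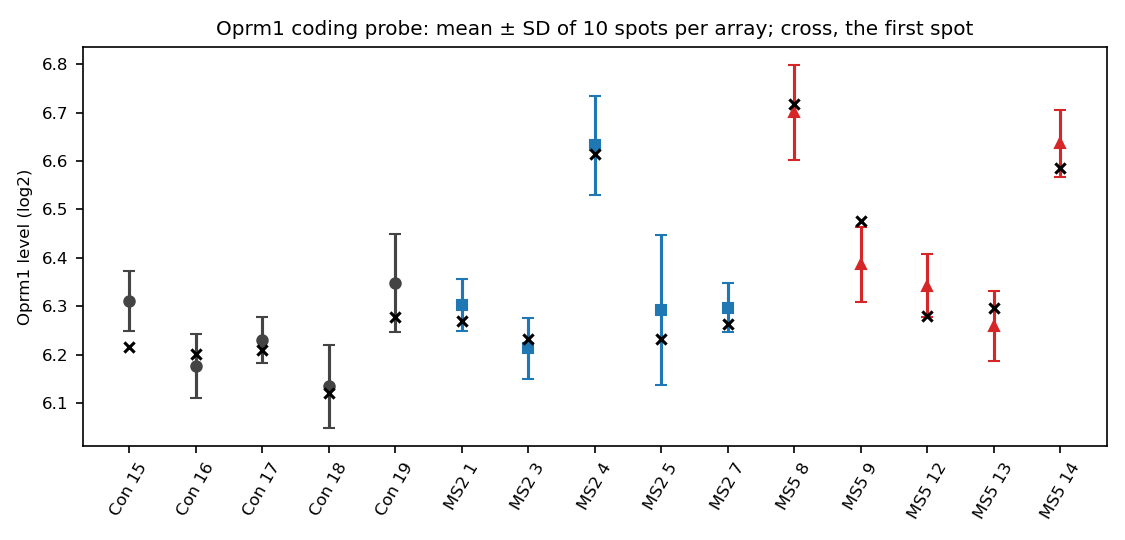
Oprm1 level (log2) of the coding probe on each of 15 arrays as the mean ± SD of its 10 spots, with crosses for the first spot, which the deposited table holds. With 10 spots averaged, MS5 replicates 12 and 13 lay at or below the highest Con array, replicate 19.

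The repeat probe of Oprm1 followed the coding probe only weakly. Its level was 15.85 to 16.48 across the arrays, and over 15 arrays the 2 probes had a Pearson r of 0.32 (a description across arrays that share groups). A run of 27 alternating A and C bases makes up much of the probe, and 19 of the 55681 probes hold at least 20 such bases in a row. The 3 probes whose levels were most like it over 15 arrays were those of Krt222, Tacr2 and Snap23, with r of 0.98, 0.97 and 0.97, and these probes hold repeats of 22, 24 and 23 A and C bases themselves. The repeat probe differed from Con by 0.17 in MS2 (-0.08 to 0.42, exact permutation p = 0.167) and by 0.15 in MS5 (-0.10 to 0.40, exact permutation p = 0.278). Being the brighter probe, it stood for Oprm1 where 1 probe per gene was taken, and 0 of 8 genes passed the threshold in any contrast by that rule. Taking the coding probe instead also gave 0.

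Oprd1, the delta receptor, is a main target of the enkephalins and had small differences between groups. It read 6.97, 6.70, 6.89, 6.88 and 6.88 in Con replicates 15 to 19, 7.09, 6.78, 6.98, 7.16 and 7.07 in the MS2 replicates, and 7.10, 6.99, 6.86, 7.21 and 7.10 in the MS5 replicates, in the same order as above. In each treated group 4 of 5 arrays lay above every Con array. The difference from Con was 0.15 in MS2 (-0.01 to 0.32, exact permutation p = 0.0873) and 0.19 in MS5 (0.02 to 0.35, 1.14-fold, limma adjusted p = 1.00, exact permutation p = 0.0476). The dose slope was 0.04 ± 0.02 (log2 per mg/kg, SE, limma adjusted p = 1.00). As for Oprm1, the size depended on the background step. MS5 minus Con was 0.32 at a normexp offset of 0 and 0.35 with the scanner's processed signal. The unadjusted limma p between MS5 and Con was no longer below 0.05 when Con replicate 16 (difference 0.15) or MS5 replicate 8 (0.18), 13 (0.15) or 14 (0.18) was left out. Over the 13 arrays that remained once MS5 replicates 9 and 14, whose choroid plexus list was far below the rest, were set aside, Oprd1 was lower where that list was higher (Pearson r = -0.75, Spearman rho = -0.68, permutation p = 0.0038, adjusted over 30 relations 0.0384, and 0.129 for rho). It was -0.65 without the 2 arrays farthest from the median. With the choroid plexus list as a covariate, chosen after seeing the data, Oprd1 differed between MS5 and Con by 0.13 (-0.07 to 0.33), and with the striatum list by 0.17 (-0.0056 to 0.35), so that in both fits the interval included 0. It did not with the thalamus and habenula list (0.19, 0.02 to 0.36) or the hypothalamus list (0.20, 0.01 to 0.39). Its slope on the choroid plexus list was -0.042 ± 0.039 (SE).

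Oprk1, the kappa receptor for dynorphins, varied more than any other receptor. Con replicates 15 to 19 read 7.29, 7.23, 7.498, 7.30 and 8.40. The MS2 replicates read 7.44, 7.29, 9.58, 8.47 and 7.22, and the MS5 replicates 9.44, 7.39, 8.34, 7.91 and 8.63. High arrays occurred in each group, 1 in Con, 2 in MS2 and most of those in MS5. The mean was 7.54 ± 0.49 in Con, 8.00 ± 1.02 in MS2 and 8.34 ± 0.77 in MS5 (SD, n = 5). MS5 exceeded Con by 0.80 (-0.17 to 1.77, 1.74-fold, limma adjusted p = 1.00, exact permutation p = 0.0794), MS2 exceeded Con by 0.46 (-0.51 to 1.42, exact permutation p = 0.452), and MS5 exceeded MS2 by 0.34 (-0.63 to 1.31, exact permutation p = 0.556). None of these passed the test. Without MS2 replicate 4, the array whose markers went against its label, the MS2 difference was 0.061. Of the 36279 probes well above background on all 15 arrays, 0.515% had a larger SD within groups.

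Whether Oprk1 passed the threshold in MS5 depended on the arrays and the fit. It passed without MS2 replicate 4 (0.80), without MS5 replicate 9 (1.03), without Con replicate 19 (1.01), without MS2 replicate 4 and MS5 replicate 9 together (1.03), with array weights (0.81) and with only the 2 groups in the fit (0.80). Without MS5 replicate 8 it was 0.52. Within slide 1 it was 1.31 and passed, and within slide 2 it was 0.31 and did not. Slide 1 held 3 Con and 2 MS5 arrays, with MS5 replicate 8 among them. Slide 2 held 2 Con and 3 MS5 arrays, with Con replicate 19 among them.

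**Figure D4:**
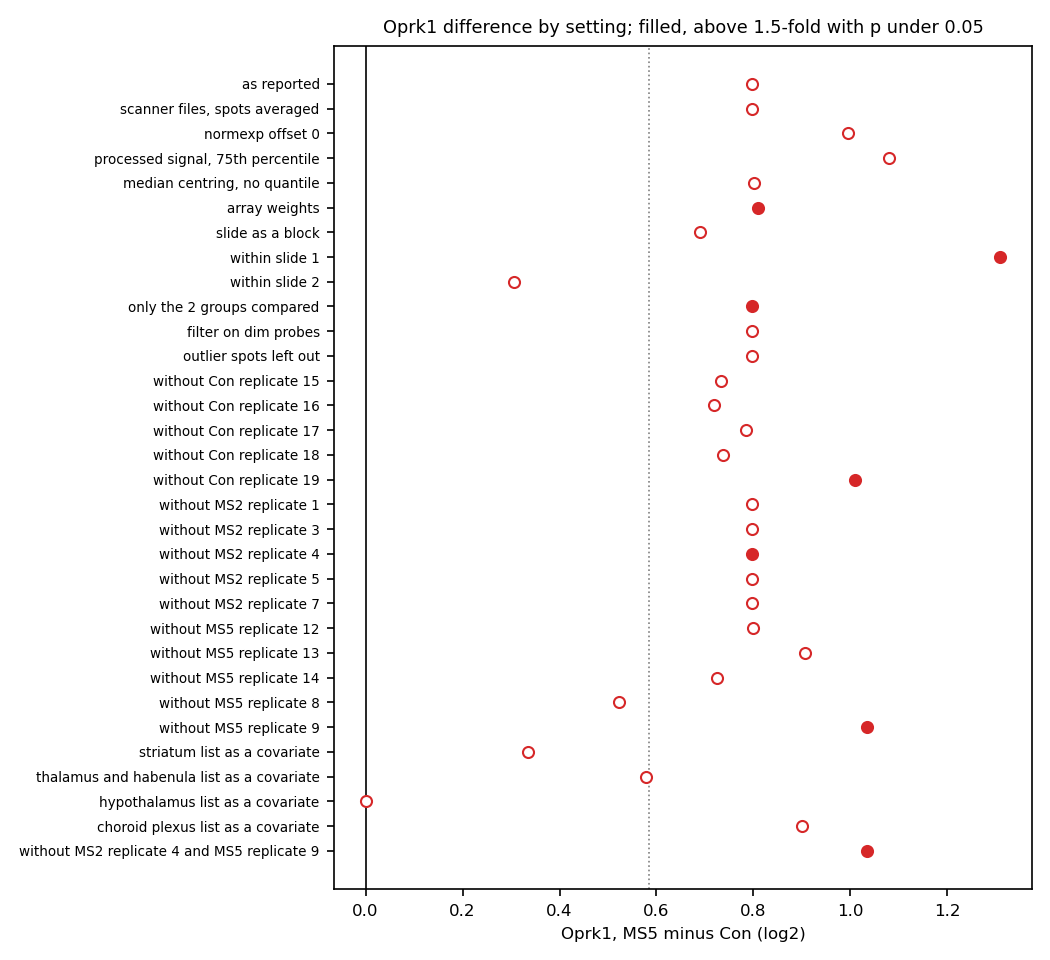
Oprk1 difference between MS5 and Con (log2) as reported and under each alternative; filled points had a fold change above 1.5 (dotted line) with an unadjusted limma p under 0.05. The values ran from 0.00082 with the hypothalamus list as a covariate to 1.31 within slide 1.

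Arrays high in Oprk1 were also high in genes of neighbouring tissue. Its correlations with the hypothalamus, striatum, thalamus and habenula, and choroid plexus lists were not tested, because gaps left fewer than 6 arrays. The 6 highest arrays of Oprk1 were also the 6 highest of the hypothalamus list (7 of 10 genes used, among them Avp, Oxt and Trh; Otp and Six6 were not well above background on any array), which ran from 6.96 to 7.91 in Con, 7.13 to 10.14 in MS2 and 7.32 to 9.07 in MS5. Avp, Oxt and Trh themselves passed the threshold between MS5 and Con, by 2.53, 1.79 and 1.89. With the mean level of this list as a covariate, the Oprk1 difference between MS5 and Con was 0.00082 (-0.44 to 0.44), and with the striatum list it was 0.34 (-0.37 to 1.04). With the thalamus and habenula list it was 0.58 (-0.12 to 1.28) and with the choroid plexus list 0.90 (-0.34 to 2.14). These fits were chosen after seeing the data. The genes most like Oprk1 over 15 arrays were Pbx3, Cited4 and Foxp2, with r of 0.98, 0.97 and 0.97. These r span high and low arrays of Oprk1 and are descriptions. Foxp2, a transcription factor known from striatal and thalamic neurons, read 8.41 to 10.36 on the 6 highest arrays of Oprk1 and 6.57 to 7.69 on the other 9. Over the 12 arrays left once Con replicate 19, MS2 replicate 4 and MS5 replicate 8 were set aside as separate clusters, Oprk1 was higher where the GABAergic interneuron list was higher (Pearson r = 0.80, Spearman rho = 0.78, permutation p = 0.0032, adjusted over 30 relations 0.0384, and 0.0595 for rho). It was 0.57 without the 2 arrays farthest from the median, and the part of interneurons in this result was not tested.

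Oprl1, the nociceptin receptor, was set apart by 1 array. Its 3′ probe read 13.51 to 13.79 in Con and 13.55 to 13.91 in MS5, whereas MS2 replicate 4 read 14.51 and the other MS2 arrays 13.68 to 13.72. The stop codon probe read 7.99 to 8.36 in Con, 8.17 to 9.17 in MS2 and 7.93 to 8.61 in MS5, and it was again highest on MS2 replicate 4. The 2 probes followed each other (r = 0.84 over 15 arrays). For the 3′ probe the difference from Con was 0.18 in MS2 (-0.12 to 0.48, exact permutation p = 0.405) and 0.15 in MS5 (-0.15 to 0.45, exact permutation p = 0.111), with 4 of 5 MS5 arrays above every Con array. For the stop codon probe it was 0.33 in MS2 (exact permutation p = 0.119) and 0.25 in MS5 (exact permutation p = 0.127). Without MS2 replicate 4 the MS2 difference was 0.019 for the 3′ probe and 0.16 for the stop codon probe. The genes most like the 3′ probe were Chrna4, Rassf6 and Peg13 (r of 0.97, 0.97 and 0.96). All 3 were also highest on MS2 replicate 4, with Chrna4, a nicotinic receptor subunit, at 11.75 there against 9.37 to 10.34 elsewhere. Without that array Oprl1 was lower where the pituitary list (4 of 8 genes used) was higher (14 arrays, Pearson r = -0.83, Spearman rho = -0.79, permutation p = 0.0004, adjusted over 30 relations 0.012). It was -0.74 without the 2 farthest arrays, that list spanned only 8.16 to 8.48, and its part in the result was not tested.

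Penk, the precursor of the enkephalins, split the arrays into a low and a high set. Con replicates 15 to 19 read 11.87, 11.66, 11.96, 11.53 and 14.85. The MS2 replicates read 11.89, 11.66, 12.68, 15.15 and 11.51, and the MS5 replicates 15.58, 11.92, 14.40, 11.70 and 14.54. High arrays were found in all groups, 1 in Con, 1 in MS2 and 3 in MS5, and the highest array was 16.9-fold above the lowest. The mean was 12.37 ± 1.40 in Con, 12.58 ± 1.51 in MS2 and 13.63 ± 1.72 in MS5 (SD, n = 5). MS5 differed from Con by 1.26 (-0.64 to 3.16, 2.39-fold, limma adjusted p = 1.00, exact permutation p = 0.310), MS2 from Con by 0.20 (-1.70 to 2.105, exact permutation p = 0.722) and MS5 from MS2 by 1.05 (-0.85 to 2.95, exact permutation p = 0.381). Of the 36279 probes, 0.0413% had a larger SD within groups. Without Con replicate 19 the difference between MS5 and Con was 1.88 and passed the threshold. The MS2 difference from Con was 0.82 without Con replicate 19 and -0.44 without MS2 replicate 5.

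The 5 arrays with Penk at 14.40 or above were the 5 on the high side of the striatum list, and the 10 with Penk at 12.68 or below were the 10 on its low side. All 10 genes of that list were used, among them the dopamine receptors Drd1a and Drd2. All 10 had a higher mean in MS5 than in Con, with a median difference of 0.86, and 0 passed the threshold. With the mean level of the list as a covariate, chosen after seeing the data, Penk differed between MS5 and Con by 0.07 (-0.35 to 0.49) and between MS2 and Con by 0.04 (-0.35 to 0.44), and its slope on the list was 1.37 ± 0.08 (SE). Among the genes most like Penk were Gdnf and Rgs9 (r of 0.97 each), of which Rgs9 belongs to the striatum list. The arrays formed 2 sets in Penk, so these r over 15 arrays span both sets and are descriptions.

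Pdyn, the precursor of the dynorphins, followed Penk in part. Its 3′ probe read 12.33, 12.57, 12.66, 12.36 and 13.22 in Con replicates 15 to 19, 12.22, 12.20, 12.30, 13.15 and 12.26 in the MS2 replicates, and 13.22, 11.95, 12.69, 12.15 and 12.69 in the MS5 replicates. The 5 arrays that were high for Penk were also the 5 highest for Pdyn, at 12.69 to 13.22. It differed from Con by -0.20 in MS2 (-0.73 to 0.32, exact permutation p = 0.421) and by -0.09 in MS5 (-0.62 to 0.44, exact permutation p = 0.722). The coding probe differed by -0.03 in MS2 (exact permutation p = 0.857) and by 0.08 in MS5 (exact permutation p = 0.770), and the 2 probes had an r of 0.73 over 15 arrays. The genes most like the 3′ probe were Pnp2, Cep63 and Epor (r of 0.95, 0.94 and 0.93).

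At a given level of the striatum list, the 3′ probe of Pdyn had a lower mean in the treated groups. With that list as a covariate, chosen after seeing the data, it differed from Con by -0.42 in MS5 (-0.55 to -0.29, limma adjusted p = 0.214) and by -0.25 in MS2 (-0.37 to -0.12, limma adjusted p = 0.934). Leaving out each array in turn within that fit gave -0.50 to -0.39 for MS5 and -0.30 to -0.21 for MS2. Both intervals lay below 0, but neither passed an adjusted p of 0.05. In the same fit the coding probe differed by -0.07 in MS5 (-0.36 to 0.22) and by -0.05 in MS2 (-0.32 to 0.23), and both of these intervals included 0. With the thalamus and habenula list instead, the 3′ probe differed between MS5 and Con by -0.095 (-0.64 to 0.45). With the hypothalamus list it differed by -0.32 (-0.85 to 0.21) and with the choroid plexus list by 0.059 (-0.60 to 0.72). These intervals all included 0, as did those between MS2 and Con in the same fits. The dentate granule list (Prox1, Calb1 and 4 other genes), which marks cells known to express Pdyn, also had lower means in MS5. All 6 of its genes had a lower mean in MS5 than in Con (median difference -0.20) and 4 of 6 in MS2 (-0.17), and 0 passed the threshold. The dentate list ran from 8.97 to 9.35 in Con, 8.08 to 9.35 in MS2 and 8.83 to 9.17 in MS5. Lower means were not particular to it. In the pyramidal neuron list, 9 of 10 genes had a lower mean in MS5 than in Con (median difference -0.13) and 10 of 10 in MS2 (-0.38). The MS2 values of both lists include MS2 replicate 4, at 8.08 in the dentate list and 10.99 in the pyramidal list. The other MS2 arrays read 9.10 to 9.35 and 13.04 to 13.18, against 8.97 to 9.35 and 12.90 to 13.16 in Con. The part of either list in the Pdyn result was not tested. On the 10 arrays low in the striatum list, the 4 Con arrays read 12.33 to 12.66 and the 4 MS2 arrays 12.20 to 12.30. Of the 2 MS5 arrays, replicate 9, the array labelled male that carried Xist, read 11.95 and replicate 13 read 12.15.

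**Figure D5:**
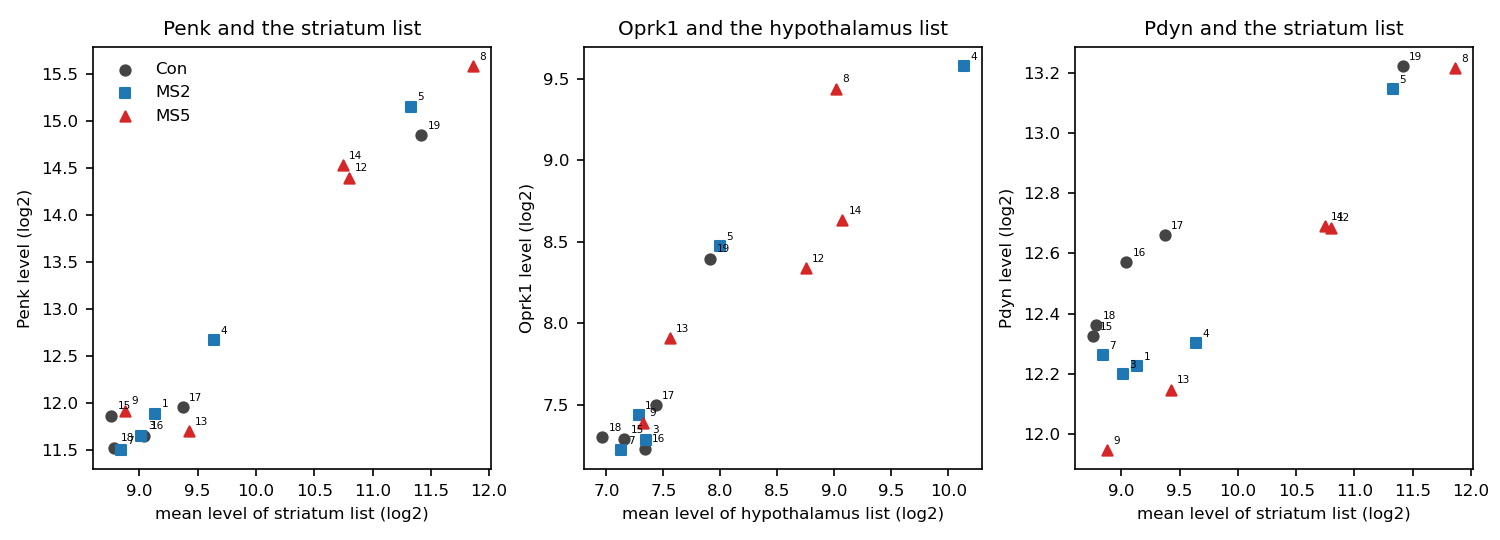
Penk against the striatum list, Oprk1 against the hypothalamus list and Pdyn (3′ probe) against the striatum list, each point being 1 of 15 arrays with its replicate number; axes are levels (log2), the x axis being the mean of the list's genes. Penk of 14.40 or more occurred only at list levels of 10.75 or more, the highest Oprk1 array was MS2 replicate 4, and at similar list levels the Con points for Pdyn lay above the MS2 and MS5 points.

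Pnoc, the precursor of nociceptin, was 11.28 to 11.54 in Con, 10.88 to 12.51 in MS2 and 11.26 to 11.44 in MS5. The 2 ends of the MS2 range were MS2 replicate 5 and MS2 replicate 4. It differed from Con by 0.14 in MS2 (-0.31 to 0.58, exact permutation p = 0.794) and by 0.03 in MS5 (-0.42 to 0.48, exact permutation p = 0.627). Without MS2 replicate 4 the MS2 difference was -0.12. The genes most like it were Tgoln1, Zfp395 and Lingo4 (r of 0.96, 0.96 and 0.95), all highest on MS2 replicate 4.

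Pomc, the precursor of beta-endorphin and the melanocortins, varied least. It was 9.83 to 10.09 in Con, 9.98 to 10.14 in MS2 and 9.91 to 10.15 in MS5. It differed from Con by 0.04 in MS2 (-0.09 to 0.17, exact permutation p = 0.516) and by 0.0010 in MS5 (-0.13 to 0.13, exact permutation p = 0.984). The upper ends of these intervals were 1.12-fold in MS2 and 1.09-fold in MS5. The genes most like it were Setdb2, Mrpl11 and Cox5b, with r of 0.81, 0.81 and 0.75.

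Genes that make, cut or relay opioid peptides showed few differences. In 8 lists of 82 genes, 0 passed the threshold in any contrast. At an unadjusted p under 0.05, 4 genes (4.88%) differed between MS2 and Con, 2 (2.44%) between MS5 and Con and 4 (4.88%) between MS5 and MS2, near the shares of all probes given above. The genes named next were chosen after their values were seen. In MS2, Ece1, an endothelin-converting enzyme that also cleaves neuropeptides, was higher than in Con by 0.21 ± 0.06 (SE) and Arrb2, an arrestin that turns off and internalizes opioid receptors, by 0.12 ± 0.05 (SE). Gnai3, an inhibitory G protein alpha subunit, and Gnb5, a beta subunit, differed by -0.21 ± 0.10 and -0.23 ± 0.11 (SE). In MS5, Rgs4, which shortens the signal of inhibitory G proteins, was higher than in Con by 0.33 ± 0.15 (SE), and Ctsl, a cathepsin that cuts peptide precursors, differed by -0.17 ± 0.07 (SE). The lowest adjusted p among these genes was 0.970 in limma. Between MS5 and MS2, Ece1 (-0.19), Ace (-0.35) and Arrb2 (-0.14) were lower and Gnb5 (0.24) higher in MS5.

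By list, the median difference between MS5 and Con was -0.02 for 10 peptide processing enzymes, -0.01 for 9 peptide breakdown enzymes, 0.06 for 11 inhibitory G protein subunits, 0.07 for 13 effector channels and cyclases (10 of them higher), 0.02 for 18 genes of receptor desensitization and trafficking, -0.05 for 6 related receptors, -0.02 for 9 melanocortin receptors and partners, and 0.01 for 6 opposing peptides and receptors, against 0.00036 for all probes. The same medians between MS2 and Con ran from -0.07 for the related receptors to 0.04 for the melanocortin list. The farthest single value in MS5 was Rgs9, at 0.68 ± 0.65 (SE), which is also 1 of the 10 striatum genes.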

How the data were processed

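The scanner intensity of each spot was deposited by the authors from Agilent Feature Extraction 10.7.1.1, and the series table of log2 values was made by the authors with normexp background adjustment and quantile normalization. These log2 values were used as deposited. Normexp at an offset of 50 and quantile normalization of all 62976 spots gave the same values for the first spot of each probe (largest difference 5e-09), while averaging spots moved 432 probes by more than 0.01. After removal of 3671 control spots, 55681 probes remained, and 0 values of the 11 probes came from saturated spots. R 4.3.3 with limma 3.58.1 fitted the 3 groups together, with adjusted p by Benjamini-Hochberg over all probes. The number of arrays limits the precision. Replicates were separate animals. Exact permutation tests were two-sided over 252 assignments. Signal flags are those of the scanner.

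The 11 probes, the lists of pathway and marker genes and the tests were chosen with earlier results of these data known. Named genes were the 8 members, the 3 genes with the highest Pearson r to each member over 15 arrays among probes well above background on all of them, and list genes past the threshold. One gene that this rule names is not reported here. A gene in a list was represented by its brightest probe. Marker levels are means of log2 levels over genes well above background on at least 5 arrays. The 48 relations of members with 6 marker lists were computed with 100000 resamples or exact enumeration, within the larger set of arrays wherever a gap exceeded 0.333 of the range. For Oprm1 they used the coding probe averaged over its spots. At least 6 arrays remained for 30 of them, and 3 had an adjusted p under 0.05. That limit was set after the values were seen. Only the fit of the 3 groups was tested on simulated data first, for the contrast of MS5 with Con. The dose slope, the covariate fits and the relations with marker lists were not. Alternatives were the background and normalization steps, spot averaging, array weights, slide, groups in the fit, filters, probe choice and leaving out arrays. Agilent's positions refer to mm9, and the miR arrays were not used here. The submitters' processing notes name RMA for all samples, whereas the deposited log2 values of the mRNA arrays matched the normexp and quantile steps above.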

Additional observations from a re-analysis of the deposited data

Results flagged for a closer look

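Arrays that lay far from the other 4 of their group, by Dixon's criterion for 5 values, were found in 7 of 33 combinations of probe and group. Chance gives about 1 in 20. MS2 replicate 4 was such an array for the coding probe of Oprm1 (6.61, the next array being 6.27) and for the 3′ probe of Oprl1 (14.51, the next 13.72). Con replicate 19 was high for Oprk1 (8.40, the next 7.498) and for Penk (14.85, the next 11.96). MS2 replicate 5 was high for the 3′ probe of Pdyn (13.15, the next 12.30), MS5 replicate 12 was low for the 3′ probe of Oprl1 (13.55, the next 13.86), and Con replicate 17 was high for Pnoc (11.54, the next 11.33).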

How the results depend on the processing

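Leaving out 1 array at a time moved the counts of probes and of genes past the threshold between MS5 and Con from 0 to between 0 and 2, and left it at 0 between MS5 and MS2. Without MS2 replicate 4 and MS5 replicate 9 together, chosen after seeing the data, the count was 1 in both contrasts. Of all 55681 probes, 166 (MS5 and Con) and 123 (MS5 and MS2) passed without both arrays. With 1 array left out, 61 to 213 of all probes passed between MS5 and Con. The probes whose groups did not overlap were 0 to 1 (MS2 and Con), 1 to 3 (MS5 and Con) and 0 to 1 (MS5 and MS2; also 1 without both of those arrays), and those with a dose slope 1 to 4. The highest of these counts for MS5 and Con came without Con replicate 19 (2 past the threshold, Oprk1 and Penk) and without MS5 replicate 12 (3 not overlapping), and the highest for the dose slope without MS2 replicate 4 (4). Without Con replicate 19, 155 of all probes passed the threshold between MS5 and Con, against 127 with all arrays. For MS5 and Con, 1 probe and 1 gene passed under array weights, with only the 2 groups compared and within slide 1, and 1 probe passed with the processed signal (Oprm1 coding probe, 0.86). Of all probes, 204, 140, 391 and 623 passed in these settings, in the same order. For MS5 and MS2, 2 passed under array weights and 1 within slide 1, where 159 and 393 of all probes passed, against 72 with all arrays unweighted. The non-overlapping probe was lost (0) with averaged spots, offset 0, the processed signal, median centring and outlier spots left out. The dose slope count was 0 with median centring, 6 within slide 1 and 1 within slide 2. With covariates, chosen after seeing the data, it was 1 (hypothalamus) and 0 (choroid plexus). Shares of all probes for non-overlapping groups and for the dose slope were not computed under the alternatives.

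Some differences turned in sign, and the cause was not tested. Under the processed signal Pdyn (coding) in MS2 was 0.035. Under median centring Pomc was -0.062 in MS2 and -0.023 in MS5, and Pnoc was -0.0065 in MS5. Under array weights the MS2 difference was -0.035 for Oprk1 and -0.36 for Penk. Within slide 1 the MS2 difference was -0.048 for Oprk1, -0.035 for Oprl1 (3′), -0.10 for Penk, 0.027 for Pdyn (coding) and -0.029 for Pnoc, and Pdyn (3′) in MS5 was 0.23. Within slide 2, Pomc was -0.016 in MS2 and -0.0100 in MS5, Pdyn (coding) in MS5 was -0.32, and MS5 minus MS2 was -0.90 for Oprk1 and -0.30 for Penk. With the striatum list, Pdyn (coding) in MS5 was -0.072 and MS5 minus MS2 for Oprk1 was -0.057. With the thalamus and habenula list, Pnoc was -0.11 in MS2 and -0.10 in MS5. With the hypothalamus list, MS2 was -0.045 for Oprk1, -0.41 for Penk and -0.038 for Pnoc, and MS5 was -0.020 for Oprl1 (3′), -0.028 for Pdyn (coding) and -0.25 for Pnoc. With the choroid plexus list, Pdyn (3′) in MS5 was 0.059. Without MS2 replicate 4 and MS5 replicate 9, Pnoc in MS2 was -0.12 and Pdyn (3′) in MS5 was 0.057.

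With 1 array left out, the MS2 differences ran from -0.44 to 0.82 for Penk, -0.097 to 0.037 for Pdyn (coding), -0.12 to 0.29 for Pnoc and -0.0022 to 0.063 for Pomc, and the MS5 differences from -0.26 to 0.057 for Pdyn (3′), -0.088 to 0.16 for Pdyn (coding) and -0.041 to 0.024 for Pomc. Over 31 alternatives the MS5 difference kept its sign for both Oprm1 probes, Oprd1, Oprk1, the Oprl1 stop codon probe and Penk. An unadjusted limma p below 0.05 was found in 27 of them for Oprm1 (coding, 0.15 to 0.86) and 23 for Oprd1 (0.13 to 0.35). The alternatives share arrays and are not separate checks, and leaving out an MS2 array cannot change the difference between MS5 and Con. With median centring the unadjusted limma p was 0.12 for Oprm1 (coding) and 0.10 for Oprd1, and within slide 2 it was 0.19 and 0.10. No paired analysis was possible. The groups compared share no replicate number, and the sample labels do not record litter. The paper describes controls as littermates of treated pups, so the arrays were treated as independent without a test of litter. The coding probe of Oprm1 was not well above background on 2 of 15 arrays at its first spot.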

Other observations

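Other probes carried annotations of the same genes under other names. Of 2 probes for Ensembl transcripts of Oprm1, 1 was well above background on 15 arrays, with a mean of 7.03 ± 0.06 in Con, 6.98 ± 0.10 in MS2 and 7.10 ± 0.11 in MS5 (SD, n = 5), and its difference between MS5 and Con was 0.07 (-0.05 to 0.20, exact permutation p = 0.183). The other was well above background on 0 arrays. A probe for a clone described as a preproenkephalin product lay at chr4:4115784-4115843 on the plus strand, whereas the Penk probe lay on the minus strand. Whether it reads Penk mRNA was not tested. Its level was 6.28 to 6.80 across the arrays and differed between MS5 and Con by 0.09 (-0.11 to 0.29, exact permutation p = 0.278). It was highest on MS2 replicate 4, not on the arrays where Penk was highest.

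Pairs of members were compared over 15 arrays by the brightest probe of each gene, which for Oprm1 was the repeat probe. Pairs with its coding probe were not computed. Among the pairs computed, the largest Pearson r were 0.86 for Penk and Pdyn, 0.82 for Oprl1 and Pnoc (both highest on MS2 replicate 4) and 0.76 for Oprk1 and Penk. These are descriptions across arrays of 3 groups, and those with Penk span its high and low sets of arrays.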
